A study of Danio rerio with 2 samples.

Results

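The Pol II peaks of zebrafish chromosome 22 were 812 regions of the 20243 bound by RNA polymerase II (Pol II) in 4 h post-fertilization (hpf) embryos. They were all the peaks of the list that lay on that chromosome. The chromosome and its first 4 Mb were selected on peak density. Densities, bin counts, spacing, near neighbours and clusters all depend on it, so they are described here and carry no test. The first 4 Mb held 282 of the 812 peaks, and the rest of the chromosome held 530. The comparison set was the 15906 peaks of the other 23 assembled chromosomes, with chromosome 4 (3001 peaks) and the unplaced scaffolds (524 peaks) left out of it.

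The embryos were untreated wild-type Tubingen zebrafish, taken whole at 4 hpf. The series had 2 samples, namely chromatin precipitated with the Pol II antibody 8WG16 and an input that was not analysed here. The former came as a single peak list, called jointly on 2 biological replicates and 1 input. Values of the separate replicates were not used here, so no difference below could be set against replicate error. Intervals are 95% exact intervals for counting error only. Peaks that lie side by side are not independent, which makes these intervals too narrow.

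Pol II transcribes protein-coding genes, and antibody 8WG16 binds the repeated heptads of the tail of its largest subunit. The enzyme gathers at promoters as sharp peaks and can spread over the bodies of heavily transcribed genes as broad domains. At 4 hpf the zebrafish genome has just begun to be transcribed, after a period in which the embryo relies on maternal RNA. Weak binding in many cells and strong binding in a few cannot be told apart in whole embryos. A gene annotation and genome of the build of these files (GRCz10) were not used here, so regions are given by position, counted from 1, and no sequence is printed.

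Chromosome 22 as a whole was denser than the pooled comparison set. Its peaks spanned 39.2 Mb at 20.7 peaks per Mb, against 13.0 per Mb on the other 23 chromosomes. They covered 3.62% of that span, against 2.49% elsewhere. Without the first 4 Mb, the density was 15.05 peaks per Mb and the covered share 2.81%. On the other 23 chromosomes, density beyond 4 Mb ranged from 8.31 to 19.6 peaks per Mb, and 2 of them exceeded chromosome 22.

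The first 4 Mb made up 10.2% of the span of chromosome 22 and held 34.7% of its peaks and 30.3% of its covered length. Density there was 70.5 peaks per Mb, or 4.69 times that of the rest (exact interval 4.04 to 5.42). Peaks covered 10.8% of the sequence of the first 4 Mb. In steps of 1 Mb the counts were 37, 95, 122 and 28 peaks. The 35 full 1-Mb steps that followed held between 2 and 35 peaks, with a median of 12, so the counts of 95 and 122 stood above all of them. On the other 23 chromosomes, 1211 such steps ranged from 0 to 77 with a median of 11.

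Bins of 100 kb resolved where the peaks lay. Of the 40 bins in the first 4 Mb, 25 (62.5%; exact interval 45.8 to 77.3) held 5 or more peaks. The share was 10.2% (7.27 to 13.9) of 352 bins in the rest of the chromosome and 9.23% of 12211 bins elsewhere. Bins of 10 or more peaks numbered 14 in the first 4 Mb (35%), 11 in the rest (3.13%) and 305 elsewhere (2.50%). Empty bins made up 20% of the first 4 Mb, 56.5% of the rest and 63.2% elsewhere. The fullest bin lay between 1.9 and 2 Mb and held 23 peaks. It was followed within the first 4 Mb by bins of 17, 16, 16 and 15 peaks, which started at 2.1, 2.3, 2.4 and 2.8 Mb. The fullest bins of the rest held 22 peaks each, at 5.6 to 5.7 and 22.2 to 22.3 Mb, and then 17 at 15.9 to 16 Mb. Single bins as full as these were therefore present beyond 4 Mb and on other chromosomes, where the highest count was 24.

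**Figure D1:**
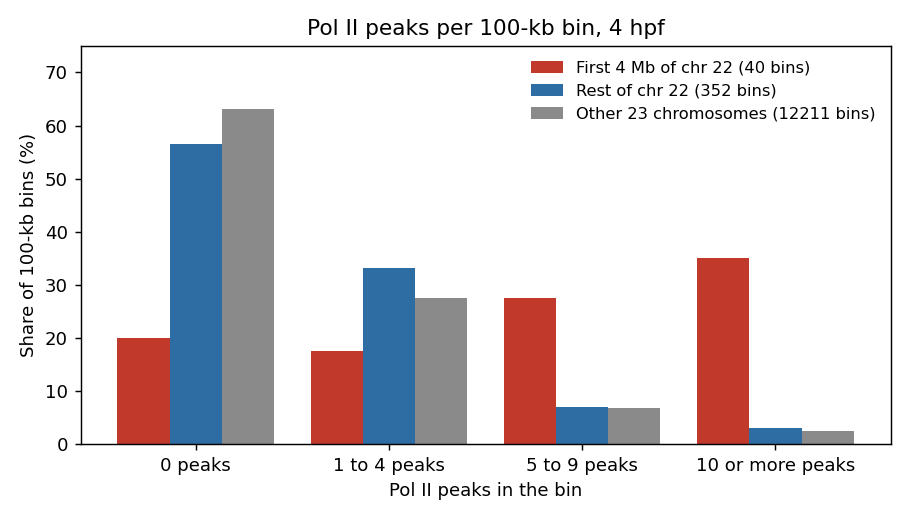
Share of 100-kb bins (y axis, %) by the number of Pol II peaks that start in the bin (x axis), for the first 4 Mb of chromosome 22, the rest of it and the other 23 chromosomes without chromosome 4. Bins of 10 or more peaks make up 35% of the first 4 Mb, 3.13% of the rest and 2.50% elsewhere.

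Most of the full bins of the first 4 Mb lay in a single run. From 1.2 to 2.9 Mb, 17 bins in a row held 5 or more peaks each. The longest such run was 3 bins in the rest of chromosome 22 and 8 bins on the other 23 chromosomes, at 6.9 to 7.7 Mb of chromosome 3. On chromosome 4, the densest chromosome of the list, it was 11 bins. The stretch from 1.2 to 2.9 Mb is called the dense block below, and its bounds were drawn after the counts had been seen. It held 215 of the 282 peaks, at 126 peaks per Mb, and its peaks covered 16.01% of its sequence. The 17 bins held 6 to 23 peaks with a median of 13.

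The parts of the first 4 Mb on either side of the dense block were sparser and broken by long spaces. From the start to 0.8 Mb there were 37 peaks (46.3 per Mb, without the empty stretch from 0.8 to 1.2 Mb). No peak lay between 760581 and 1233100, a space of 473 kb that ended where the dense block began. From 2.9 to 4 Mb there were 30 peaks (27.3 per Mb), with a space of 390 kb from 3344681 to 3734400. Another long space, 398 kb, ran from 3986731 to 4384350 across the 4-Mb bound. The last peak inside the bound (3976351 to 3986730) was 10.4 kb wide and scored 876, and the peak before it (3974741 to 3975460) was 720 bp wide and scored 86. The first peak outside (4384351 to 4384730) was 380 bp wide and scored 104, and the next (4412021 to 4414500) was 2480 bp wide and scored 912. The bound at 4 Mb thus fell in a peak-free space and divided no cluster.

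Chromosome 22 had the highest ratio of density at the start to density beyond it. The ratio ranged from 0.44 on chromosome 14 to 2.47 on chromosome 21 among the other 23 chromosomes, with a median of 1.09, against 4.69 on chromosome 22. Other starts held 23 to 140 peaks in their first 4 Mb, with a median of 57, against 282. Among the 293 full 4-Mb windows of the other chromosomes, none held more than 140 peaks and none was covered by more than 8.41%, against 10.8%. This rank follows from the way the region was picked, and it is given as a description.

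**Figure D2:**
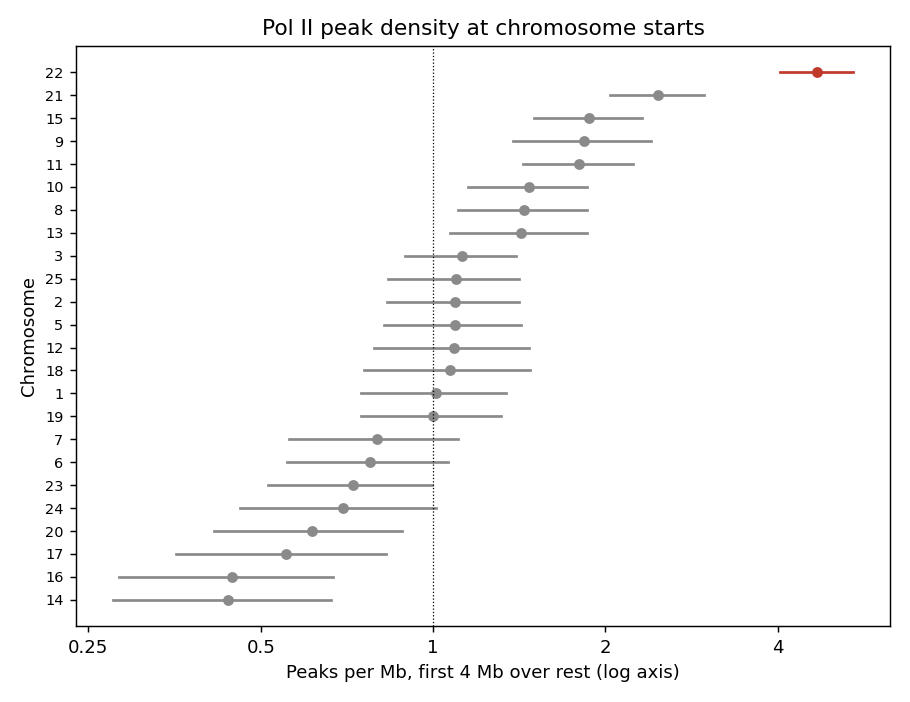
Peaks per Mb in the first 4 Mb over peaks per Mb in the rest (x axis, log scale), for chromosome 22 and 23 other chromosomes (y axis). Points are ratios and lines their 95% exact intervals for counting error; chromosome 22 lies at 4.69 and chromosome 21, the next, at 2.47.

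Spaces in the dense block were seldom long, and their median was higher than those of the pooled comparison groups. Single windows of 4 Mb often had a median space above that of the whole first 4 Mb. Of the 293 windows on other chromosomes, 83 had a median space above the 5255 bp of the first 4 Mb. Windows of chromosome 22 beyond 4 Mb reached 86505 bp. In the dense block, the median space to the next peak was 5700 bp (quartiles 960 and 8775 bp). It was 2820 bp in the rest of chromosome 22 (620 and 53760 bp) and 2500 bp on the other 23 chromosomes (590 and 47575 bp). A middle class of spaces, 4 to 15 kb, made up the difference. It took in 115 of the 215 spaces in the dense block (53.5%; exact interval 46.6 to 60.3), against 54 of 529 in the rest (10.2%; 7.76 to 13.1) and 11.7% of 15883 elsewhere. The class was drawn after the spaces had been seen. Spaces under 1 kb were 26.5% of those in the dense block, 33.1% of those in the rest and 34.99% elsewhere. No space in the dense block exceeded 100 kb, while 18.7% did so both in the rest and elsewhere.

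**Figure D3:**
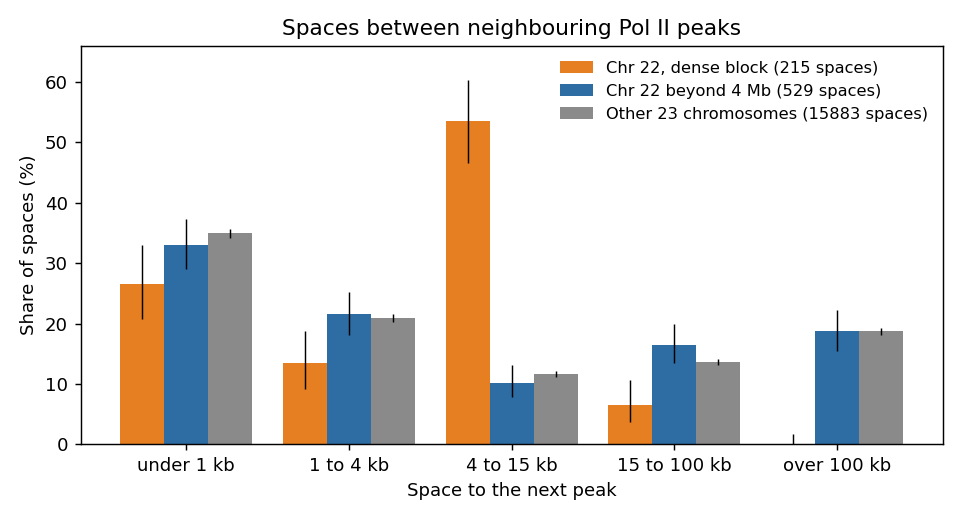
Share of spaces between neighbouring Pol II peaks (y axis, %) by length class (x axis), for the dense block in the first 4 Mb of chromosome 22, chromosome 22 beyond 4 Mb and the other 23 chromosomes. Bars are shares and lines their 95% exact intervals; 53.5% of spaces in the dense block measured 4 to 15 kb, against 10.2% and 11.7%.

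Within the first 4 Mb, most middle spaces (115 of 124) belonged to the dense block. From the start to 0.8 Mb, 9 of 37 spaces were of 4 to 15 kb (24.3%; exact interval 11.8 to 41.2), and from 2.9 to 4 Mb 0 of 30 were, with an exact upper bound of 11.6%. Over the whole first 4 Mb the share was 44.0%, above the 31.6% that was the highest in any of the 293 windows elsewhere (median 10.5%). In the 16 of those windows with 90 or more peaks it ranged from 8.91% to 28.7%, the highest being the start of chromosome 15. In the remaining 4-Mb windows of chromosome 22 it reached 18.4% at most. On the distal part of chromosome 4, beyond 30 Mb, where density was 53.7 peaks per Mb, the share was 18.7% (17.2 to 20.3).

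**Figure D4:**
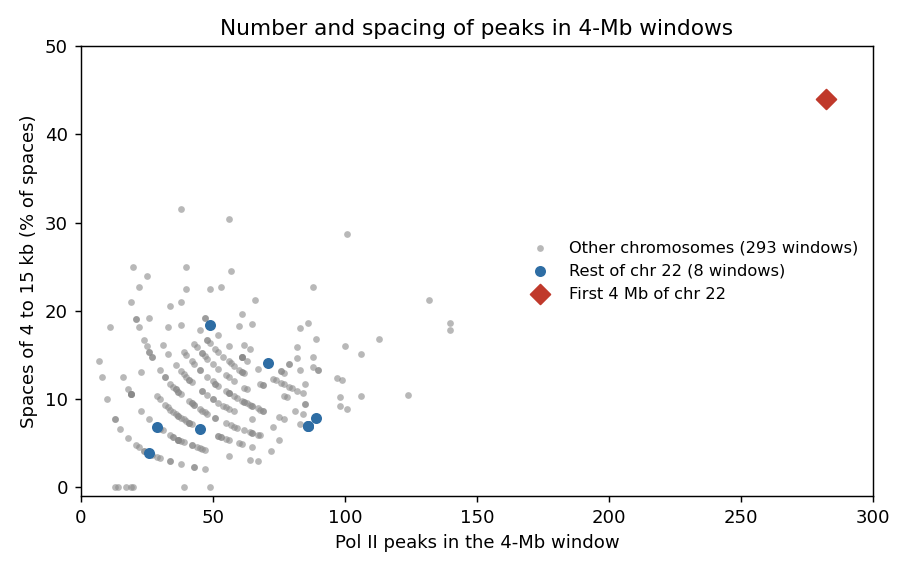
Share of spaces of 4 to 15 kb (y axis, %) against the number of Pol II peaks (x axis) in non-overlapping 4-Mb windows of chromosome 22 and of 23 other chromosomes. The first 4 Mb of chromosome 22 (282 peaks, 44.0%) lie apart from all 293 windows elsewhere, which reach 140 peaks and 31.6%.

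Neighbouring peaks within 2 kb were then joined into units, so that a site called as several pieces was counted once. The dense block had 138 units, of which 102 were a single peak. In the rest of chromosome 22, 204 of 295 units were, and on the other 23 chromosomes 5457 of 8500. In the dense block, the distance between the centres of neighbouring units had a median of 9.92 kb. Its quartiles were 8035 and 13284 bp, a ratio of 1.65 between the quartiles. The ratio was 13.2 in the rest of chromosome 22 and 17.2 on the other 23 chromosomes, where the medians were 37.3 and 42.6 kb. Distances of 5 to 15 kb were 78.3% of those in the dense block (exact interval 70.4 to 84.8), against 21.1% (16.6 to 26.2) and 25.3% (24.4 to 26.2). The fullest class was 7.5 to 10 kb, with 48 of 138 distances (34.8%), where the other chromosomes had 7.01%. On the distal part of chromosome 4 the median was 15.5 kb and the quartile ratio 4.91. Distances of 5 to 15 kb were 38.0% there (35.4 to 40.5). The longest distance between units in the dense block was 35.6 kb. The units were defined after the spaces had been seen, and their distances depend on the density that picked the dense block. With joining at 1 or 3 kb, the share of 5 to 15 kb in the dense block was 74.7% or 79.3%. It was then 24.1% or 15.8% in the rest and 25.6% or 21.0% on the other 23 chromosomes.

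The dense block divided into clusters differently with the stitching distance. Cluster sizes depend on the density that picked the region and are given as a description. With peaks stitched across spaces of 10 kb or less, the first 4 Mb formed 68 clusters. Of these, 21 were lone peaks (30.9%) and 6 held 10 or more peaks (8.82%, or 1.5 per Mb). The rest formed 203 clusters, with 118 lone peaks (58.1%) and 11 of 10 or more (5.42%, or 0.31 per Mb). On the other 23 chromosomes, 49.5% of clusters were lone peaks and 4.80% held 10 or more (0.22 per Mb). The mean cluster held 4.15 peaks in the first 4 Mb, 2.61 in the rest and 2.83 elsewhere. The largest cluster held 23 peaks in both parts of chromosome 22, and 43 on the other chromosomes, so the clusters of the first 4 Mb were not larger than the largest found elsewhere. With stitching at 20 kb, the largest cluster of the first 4 Mb joined 126 peaks over 823 kb (1887551 to 2710300). The largest was then 23 in the rest, 48 on the other chromosomes and 36 on chromosome 4. At 50 kb the 215 peaks of the dense block and 2 beyond it became 1 cluster over 1680 kb (1233101 to 2913090), and the largest elsewhere held 62 peaks.

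The share of peaks with a near neighbour also changed with distance. Within 10 kb, 92.6% of peaks in the first 4 Mb had a neighbour (exact interval 88.8 to 95.3), against 77.7% in the rest (74.0 to 81.2) and 82.5% elsewhere. Within 5 kb the start had the lowest share, 65.6% (59.7 to 71.1), against 73.0% in the rest (69.0 to 76.8), where the intervals overlapped, and 76.6% elsewhere. Within 1 kb the shares were 47.2% (41.2 to 53.2), 51.1% (46.8 to 55.5) and 53.9%. Lone peaks at 10 kb made up 7.45% of peaks in the first 4 Mb, 22.3% in the rest and 17.5% elsewhere. On the distal part of chromosome 4, 89.3% of peaks had a neighbour within 10 kb and 10.7% were lone. Near neighbours and lone peaks depend on the density that picked the region, so these shares are a description.

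The largest clusters of the first 4 Mb at 10 kb differed in how tightly they were built. The 23 peaks from 1905201 to 1999470 covered 40.5 kb, or 43.0% of the cluster, at a median space of 985 bp, with a median score of 149. The 20 peaks from 1267801 to 1360800 covered 53.6% of the cluster at a median space of 720 bp. They included the widest peak of the dense block, 17.1 kb (1295331 to 1312420), which also had its highest score, 638. The 16 peaks from 2126131 to 2202520 lay farther apart, at a median space of 4030 bp, and covered 20.5%. In the 11 peaks from 2409461 to 2442150 the median space was 1280 bp, and none scored above 170. The 11 peaks from 3954241 to 3986730 lay outside the dense block and covered 69.4%. Beyond 4 Mb, the cluster of 23 peaks from 5598581 to 5684470 covered 63.6 kb, or 74.1%, at a median space of 645 bp, with a median score of 87 and scores up to 2194. It was followed by 18 peaks from 21591391 to 21644830 (median score 49.5) and 15 peaks from 15946561 to 15996250 (median score 44). The 4 named clusters of the dense block had median scores of 85 to 149, against 44 to 87 for these 3, all named by size. No peak of those 4 scored above 638. Other clusters of 10 or more peaks did not keep the 2 sets apart. In the dense block, the 10 peaks from 1550721 to 1599520 had a median score of 161. Beyond 4 Mb, the medians of all 11 such clusters ran from 43 (17627861 to 17663940) to 188 (9860031 to 9900550).

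The middle of the width distribution was alike in both parts. The median width was 880 bp in the first 4 Mb (quartiles 550 and 1508 bp), 840 bp in the rest (500 and 1665 bp) and 860 bp elsewhere (480 and 1830 bp). Broad domains made up a smaller share of the peaks at the start. Peaks of 5 kb or more numbered 10 of 282 in the first 4 Mb (3.55%; exact interval 1.71 to 6.42), 39 of 530 in the rest (7.36%; 5.28 to 9.92) and 8.73% of peaks elsewhere. The intervals of the first 4 Mb and the rest overlapped, and that of the first 4 Mb lay below the value of the other chromosomes. Such peaks held 26.8% of the covered length in the first 4 Mb, 43.5% in the rest and 45.6% elsewhere. The distal part of chromosome 4, also dense, had a similarly low share of them. They were 4.07% of its peaks (3.33 to 4.92) and held 31.1% of its covered length. In the dense block 3 of 215 peaks were that wide (1.40%; 0.29 to 4.02). Of the 37 peaks before 0.8 Mb, 1 was (2.70%; 0.07 to 14.2). Of the 30 peaks from 2.9 to 4 Mb, 6 were (20%; 7.71 to 38.6). The smaller share of the first 4 Mb thus did not hold in its last part. Among the 293 windows elsewhere, 250 had a larger share of broad peaks than the first 4 Mb.

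Scores at the start had a higher median than the pooled comparison groups and a smaller share of very high values. The score is a whole number per peak that was read as 10 times its highest −log10 q, a measure of significance rather than of the amount of Pol II. Its median was 101 in the first 4 Mb, 106 in the dense block, 77 in the rest and 76 elsewhere. Of the 293 windows of 4 Mb on other chromosomes, 44 had a higher median score than the first 4 Mb. Among the starts of the other 23 chromosomes, 2 did. The share of peaks within the top 25% of the whole list hardly differed, at 26.6% in the first 4 Mb (exact interval 21.5 to 32.2), 25.1% in the rest (21.5 to 29.01) and 25.1% elsewhere. Peaks in the top 10% were 2.84% of the first 4 Mb (1.23 to 5.51), 10% of the rest (7.58 to 12.9) and 9.90% elsewhere. Peaks that scored 1000 or more numbered 4 in the first 4 Mb (1.42%; 0.39 to 3.59), 24 in the rest (4.53%; 2.92 to 6.66) and 4.97% of peaks elsewhere, and here the intervals of the first 4 Mb and the rest overlapped. In the dense block 0 of 215 did, with an exact upper bound of 1.70%. The score below which 90% of peaks fell was 252 in the dense block, 515 in the rest and 511 elsewhere.

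**Figure D5:**
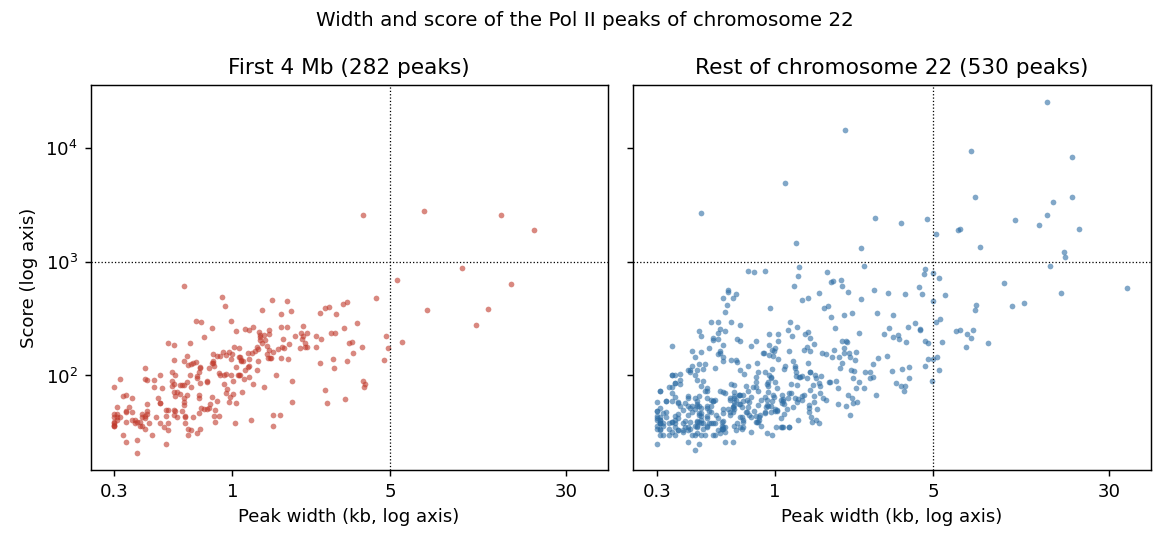
Score (y axis, log scale) against width in kb (x axis, log scale) of each Pol II peak in the first 4 Mb of chromosome 22 (282 peaks) and in the rest of it (530 peaks). Dotted lines mark 5 kb and a score of 1000; 4 peaks of the first 4 Mb and 24 of the rest reach that score.

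No part of the dense block carried scores like the highest of the chromosome. The median scores of its 17 bins of 100 kb ran from 64 to 157, and its 5 highest single scores were 638, 606, 489, 459 and 444. Of those 5 peaks, 3 lay in the first 2 bins and 1 in the last. Score and width rose together, with Spearman's rho of 0.70 over the 215 peaks of the dense block, 0.61 over the 530 of the rest and 0.69 elsewhere. Both are set by the same pile-up of reads, and the correlation is given as a description.

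The 4 peaks of the first 4 Mb that scored 1000 or more all flanked the dense block. They were at 3136351 to 3143420 (7.07 kb, score 2751), 569191 to 584650 (15.5 kb, score 2575), 756781 to 760580 (3.8 kb, score 2548) and 3113511 to 3135200 (21.7 kb, score 1902). The first and the last lay 1150 bp apart, in a cluster of 5 peaks. The peak at 756781 was the last before the 473-kb space.

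The highest scores of the chromosome lay beyond 4 Mb, with 1 of the top 10 in the first 4 Mb. The highest, 24891, belonged to a 15.98-kb peak (18506441 to 18522420) that ranked 21st in the whole list. Next was a peak of 2030 bp with a score of 14189 (39220501 to 39222530), close to the end of the last peak of the chromosome (39223051 to 39223520, 470 bp, score 2655). A 7.38-kb peak at 39122641 to 39130020 scored 9240 and a 20.6-kb peak at 36701571 to 36722160 scored 8326. The others of the top 10 beyond 4 Mb were narrow at 34645271 to 34646380 (1110 bp, score 4859) and broad at 17505761 to 17526400 (20.6 kb, score 3658), 9888881 to 9896560 (7.68 kb, score 3647) and 9989251 to 10006230 (17.0 kb, score 3297). High scores thus came from both sharp peaks and broad domains.

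The broadest domain of chromosome 22 spanned 36.0 kb (6959731 to 6995730) with a score of only 585. It was followed by domains of 22.2 kb (5631451 to 5653600), 21.7 kb, 20.6 kb and 20.6 kb. In several of these the summit, the position of highest signal, lay at an edge. It stood at 98.2% of the width of the 36.0-kb domain, counted from its lower coordinate, at 92.3% in the domain at 3113511, at 1.74% in that at 17505761 and at 97.1% in that at 36701571, but at 30.9% in that at 5631451. Of all 49 peaks of 5 kb or more on chromosome 22, 27 had the summit within the outer 10% at either end (55.1%; exact interval 40.2 to 69.3), 6 of 10 in the first 4 Mb and 21 of 39 in the rest. On the other 23 chromosomes the share was 39.6% (37.0 to 42.2), and the intervals overlapped. On the distal part of chromosome 4 it was 52.9% (42.8 to 62.9), near that of chromosome 22. Among narrower peaks it was 4.85% on chromosome 22 and 5.10% elsewhere.

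Beyond 4 Mb, peaks were grouped between long empty stretches. The longest space ran 982 kb from 35556251 to 36538070, the next 930 kb from 14111681 to 15041790 and then 882 kb from 36722161 to 37604460. Peaks were fewest between 28 and 36 Mb, where the 2 windows of 4 Mb held 26 and 29 peaks, and covered 0.58% and 0.86% of the sequence. The windows from 4 to 12 Mb held 89 and 86 peaks. In the 8 full windows beyond 4 Mb the median score ranged from 52 to 112 and the median width from 565 to 1010 bp, so the values of the first 4 Mb (101 and 880 bp) lay within the range of the chromosome.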

How the data were processed

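Pol II ChIP-seq of 4 hpf zebrafish embryos was represented by 1 peak list. Per the study's methods, single-end reads were aligned to Zv10 (GRCz10) with Novoalign 2.8, and reads with several equal positions were each placed randomly at 1. SAMtools merged the technical replicates, after which 2 biological replicates and 1 input went through a multi-replicate wrapper around MACS2 (the submitters' notes name Novoalign, SAMtools and MACS2). Random placement spreads reads over near-identical copies, so a peak in repeated sequence can stand for another copy. Whether peaks described here lie in such sequence was not tested. The authors deposited 1 whole-number score per peak, lowest 20, read here as 10 times −log10 q because the stated cutoff is 2. The deposited list also gives other values, the bounds and the summit of each peak. Its columns for fold, p and q hold 0 and were not used. Sequencing depth is unknown from the list. No peak was narrower than 300 bp and no space smaller than 210 bp, so closer sites appear as 1 peak.

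Peaks were assigned by their start to the first 4 Mb or the rest and to 100-kb bins (full bins only). The end of a chromosome's last peak stood for its length. Peaks across spaces of 10 kb or less were stitched into clusters. Shares carry Clopper-Pearson 95% intervals and density ratios exact conditional binomial ones. No test was run, because there was 1 pooled list and density had chosen the region. The members, measures and lists were chosen with earlier results of these data known. Regions named by rule were the 10 highest scoring and 5 widest peaks, the 5 and 3 largest clusters and the 5 and 3 fullest bins of the first 4 Mb and of the rest, the peaks beside 4 Mb and the 3 longest spaces. Other regions, and the dense block, were picked after their values were seen. The stitching, the merging and the interval of the density ratio were tested on simulated data. Python 3.11.15, pandas 2.3.3, numpy 2.4.6, scipy 1.17.1 and matplotlib 3.10.9 were used. Alternatives changed the score minimum, merging, stitching, bin size, thresholds and the 4-Mb bound.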

Additional observations from a re-analysis of the deposited data

How the results depend on the processing

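The ratio of density at the start of chromosome 22 to density beyond was 2.95 with stitched clusters counted in place of peaks. It was 5.50 with the bound at 3 Mb, and it exceeded 1 under all 5 alternatives. The start was picked for its density, so a ratio above 1 was given by that choice and is no support for it. The share of broad peaks in the first 4 Mb was 9.93% at a width of 3 kb, 6.99% with peaks within 500 bp merged and 1.47% with only the first peak of each cluster. It stayed below the rest of the chromosome under these 3 (13.96%, 11.7% and 6.90%), but the intervals overlapped in each. On the other 23 chromosomes the shares were 15.1%, 13.1% and 9.86%. The value of 1.47% was 1 of 68 peaks. The share of high scores was 2.84% for the top 10% of the list and 20.6% with the first peak of each cluster. Near neighbours made up 65.6% within 5 kb, against 73.0% in the rest and 76.6% elsewhere. Within 20 kb they made up 97.5%, against 83.0% and 86.7%. Clusters of 10 or more peaks numbered 3 with stitching at 5 kb and 3 with only peaks scoring 50 or more, against 6. Spaces of 4 to 15 kb in the dense block, whose alternatives were chosen after seeing the data, were 61.9% with only peaks scoring 50 or more and 65.0% with peaks within 500 bp merged, and spaces of 5 to 12 kb were 40%. The share of full bins ran from 52% (bound at 5 Mb) to 73.3% (bound at 3 Mb) under its alternatives, against 62.5%. The covered length ran from 9.19% (bound at 5 Mb) to 11.4% (bound at 3 Mb), against 10.8%. For clusters, spaces, full bins, covered length and high scores by first peak, values of the other groups under these alternatives are not reported here. The cause of these shifts was not tested beyond what each setting changes by its construction. No paired analysis was possible because 1 joint list stood for both biological replicates, neither of which could be left out. Genes and sequence at the named regions were not analysed here.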
